A study of Mus musculus with 18 samples.

Results

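The names of the RNA-seq libraries of C2C12 myotubes begin with C13 or D1, and the 4 libraries with the first prefix were compared with the 5 with the second. Membership followed from the names alone. These 9 libraries are all the myotube libraries of a series of 18, and the other 9 are myoblasts whose names begin with C14 (4 libraries) or D2 (5 libraries). C2C12 is a mouse muscle line whose dividing, single-nucleus myoblasts can be made to fuse into myotubes. PolyA RNA was taken right after stretching in every group, and there were 3 libraries for each of 6 groups: each of the 2 stages with si-Ctrl (control), si-Setd2#1 (siRNA 1) or si-Setd2#2 (siRNA 2). Setd2 encodes the enzyme that trimethylates lysine 36 of histone H3. Both prefixes occurred in every myotube group: C13 held 2 control libraries, 1 siRNA 1 library and 1 siRNA 2 library, and D1 held 1, 2 and 2. The labels do not say what a prefix stands for, and no culture, day or sequencing run is tied to it. By the replicate numbers in the titles, every replicate 1 myotube library is C13 and every replicate 2 library is D1. Of the C13 controls, 1 has a name with NT_2 where the other controls have NT_1, and whether it received another control siRNA is not given. No unstretched group was used here.

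Fibrillar collagens and other matrix genes rise with culture density, time and TGF-beta signalling. Sterol genes respond to membrane cholesterol and serum lipid through the transcription factor SREBP, which INSIG proteins hold in the endoplasmic reticulum when sterol is ample. Immediate early genes respond within minutes to growth factors, medium change and mechanical load through the ERK pathway and SRF.

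Depth was 43.5 to 52.4 megareads (estimated counts) in the C13 libraries and 51.2 to 66.6 in the D1 libraries. The 9 pairs of libraries within an siRNA group differed by more than sampling noise. Ribosomal RNA-like sequence took 1.27% to 2.3% of the counts in C13 and 1.5% to 2.99% in D1. Of 7 library measures, which also covered genes detected, mitochondrial copies, histone and retained-intron shares and the share of the 100 highest genes, 0 passed the exact permutation test of prefix within siRNA groups after Benjamini-Hochberg adjustment (two-sided). The smallest p that its 27 arrangements allow is 0.037, which the histone share reached (adjusted p = 0.26). A measure that alone reached this floor could therefore not pass, and the test cannot show that the measures were alike. Levels are given as CPM, estimated counts per megaread of the library after TMM scaling, and log2 fold changes as C13 minus D1 over the siRNA groups. The defining muscle markers were present in all 9 libraries: the embryonic myosin gene Myh3 stood at 6016 to 7313 CPM in the C13 libraries and 6677 to 8385 in the D1 libraries. Setd2, the siRNA target, was at 105 and 98.6 CPM in the C13 controls, 58.1 with siRNA 1 and 38.2 with siRNA 2. It was at 104 CPM in the D1 control, 37.9 and 38.1 with siRNA 1 and 35.0 and 33.8 with siRNA 2, so every depleted library lay below every control. The prefix difference of Setd2 missed the threshold (log2 fold change 0.23, SE 0.12, adjusted p = 0.34), but it differed between siRNA groups (adjusted p = 7.8e-06), with the C13 siRNA 1 library above both D1 siRNA 1 libraries.

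Many matrix genes were higher in C13 myotubes and many genes of sterol and fatty acid synthesis were lower, and more immediate early genes were called lower than higher. The lists for mitosis, S phase, the proteasome and H3K36 methylation held 0 or 1 called gene each. Of 15809 genes tested with the siRNA group in the model (edgeR's quasi-likelihood test, Benjamini-Hochberg adjusted p under 0.05), 1409 were called (8.91%), 682 higher in C13 (4.31%) and 727 lower (4.6%). Most differences were small: 170 of the called genes passed 1.5-fold and 45 passed 2-fold, and the median log2 fold change over all genes was 0.0002. The C13 and D1 libraries did not overlap within any siRNA group, with C13 on the same side in each, for 1347 of the called genes and for 3507 of all genes tested (22.2%). Leaving out 1 library gave 859 to 1236 calls, with 859 without D1 siRNA 2 replicate 2 and 873 without the C13 siRNA 2 library. The p-values measure only the spread between these libraries, which may be technical. Over the 47 gene lists, the median was highest for collagens and lowest for cholesterol synthesis.

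**Figure D1:**
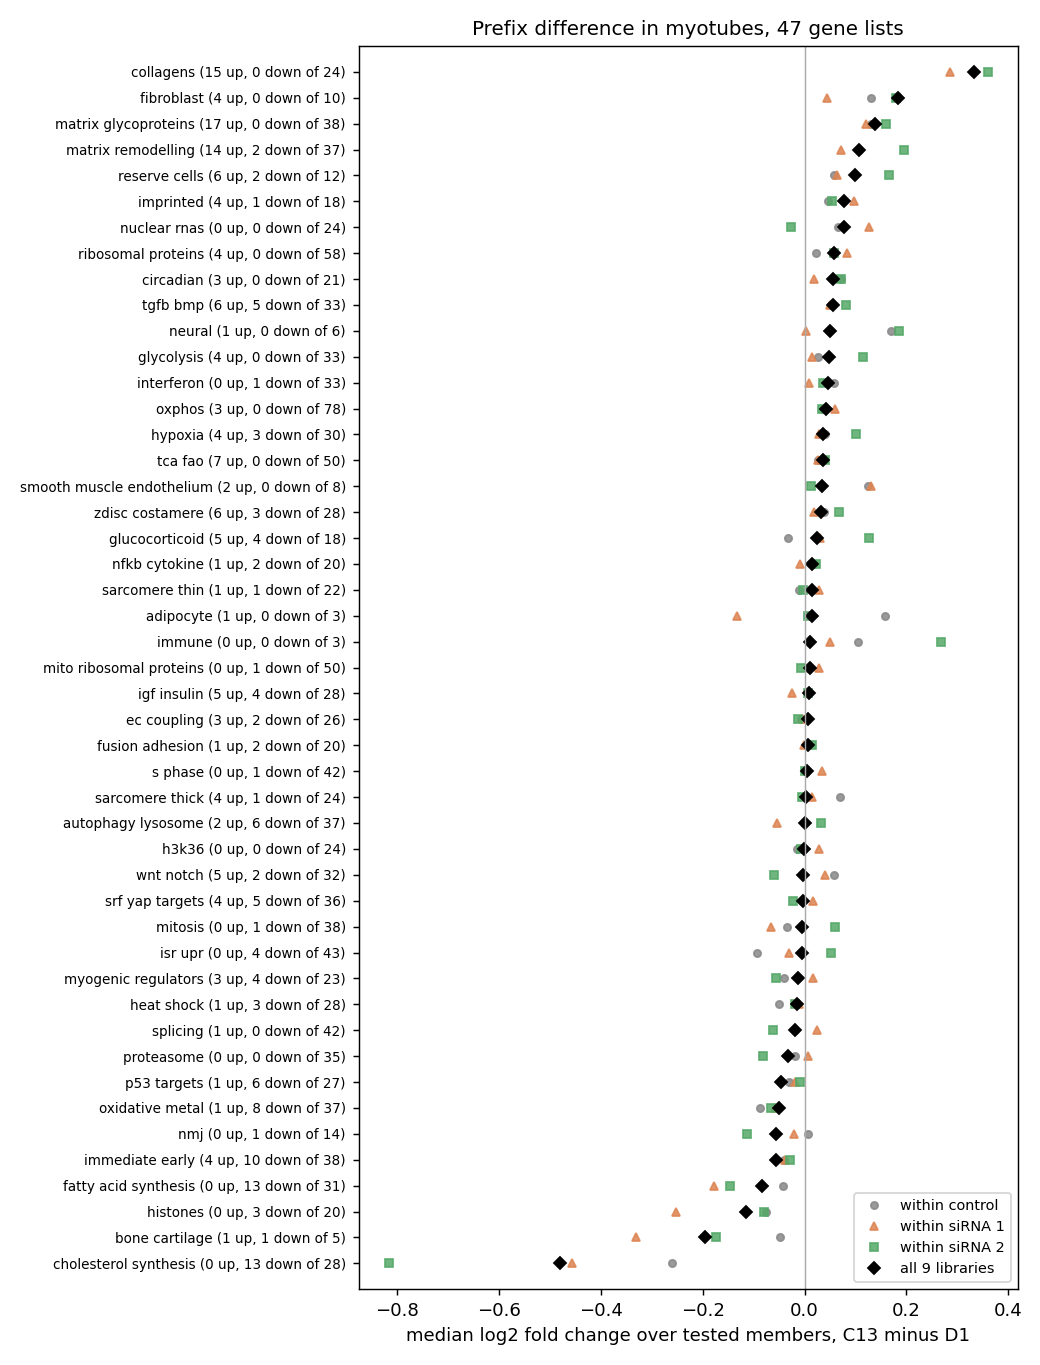
Median log2 fold change, C13 minus D1 (horizontal axis), over the tested members of each of 47 gene lists, with the numbers called up and down; black diamonds are the fit of all 9 libraries and the other symbols the values within each siRNA group. Collagens sit at 0.33 and cholesterol synthesis at -0.48, while the sarcomere lists sit near 0.

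The largest rises among genes of at least 5 CPM whose libraries did not overlap within any siRNA group included several secreted and surface proteins. They were Ckmt2 (mitochondrial creatine kinase, 1.16), Cilp (a cartilage matrix protein, 1.16), Enpp1 (a pyrophosphate-making ectoenzyme, 0.98), Col1a1 (0.86), Svep1 (a large adhesion protein, 0.85) and Cdh11 (a mesenchymal cadherin, 0.80), as log2 fold changes. Next came Postn (0.78), Piezo2 (a stretch-gated channel, 0.74), Col6a3 (0.73), Txnip (a glucose-responsive thioredoxin inhibitor, 0.73), Angptl4 (a lipoprotein lipase inhibitor, 0.70) and Cmya5 (a muscle costamere protein, 0.70). The largest falls were Mal (a membrane raft protein, -1.19), Gja5 (a connexin, -0.84), Insig1 (-0.81), Depp1 (a FOXO target, -0.75), the transmembrane collagens Col23a1 (-0.66) and Col13a1 (-0.65), and Gcat (glycine metabolism, -0.63). They ended with Otud7a (a deubiquitinase, -0.63), Mt1 (metallothionein, -0.62), Serpinb7 (-0.61), Cyp51 (-0.61) and Hmgcs1 (-0.60). Of these 24, the calls of Angptl4, Gja5, Insig1, Mt1, Cyp51 and Hmgcs1 were lost in 6 or 7 of the 9 fits that left out 1 library, each time including the fits without C13 control 1 and without D1 siRNA 1 replicate 2. Those of Col23a1 and Otud7a were lost without the C13 siRNA 2 library (adjusted p = 0.081 and 0.077), and that of Col13a1 without D1 siRNA 1 replicate 2 (0.051).

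These genes were chosen for not overlapping within any siRNA group, and several also separated the prefixes across all libraries. Cilp was at 9.69 and 10.4 CPM in the C13 controls, 6.46 with siRNA 1 and 7.76 with siRNA 2. In D1 it was at 4.16 CPM in the D1 control, 3.05 and 2.62 with siRNA 1 and 4.23 and 3.52 with siRNA 2, so that even the lowest C13 value lay above the highest D1 value (log2 fold change 1.16, SE 0.083, adjusted p = 1.4e-06). Enpp1 was at 39.1 and 39.7 CPM in the C13 controls, 27.2 with siRNA 1 and 22.3 with siRNA 2. The corresponding level was 22.0 CPM in the D1 control, 11.9 and 14.1 with siRNA 1 and 9.94 and 11.4 with siRNA 2 (log2 fold change 0.98, SE 0.060, adjusted p = 1.4e-06), and controls were the highest libraries under both prefixes. Cdh11 was at 35.7 and 38.0 CPM in the C13 controls, 27.4 with siRNA 1 and 25.2 with siRNA 2. It stood at 21.9 CPM in the D1 control, 15.0 and 14.6 with siRNA 1 and 14.9 and 14.7 with siRNA 2, again with no overlap (log2 fold change 0.80, SE 0.040, adjusted p = 2.4e-08). Piezo2 was at 20.3 and 19.3 CPM in the C13 controls, 16.6 with siRNA 1 and 13.5 with siRNA 2. In D1 it was at 14.7 CPM in the D1 control, 8.11 and 7.68 with siRNA 1 and 7.95 and 7.81 with siRNA 2 (log2 fold change 0.74, SE 0.095, adjusted p = 0.0013), and the gap was narrower in controls than with either siRNA (adjusted p = 0.0043 for a difference between siRNA groups). Across siRNA groups the prefixes overlapped for Piezo2, since the C13 siRNA 2 library lay below the D1 control. In the opposite direction, Mal was at 3.00 and 3.76 CPM in the C13 controls, 3.13 with siRNA 1 and 3.20 with siRNA 2. The corresponding level was 6.90 CPM in the D1 control, 8.95 and 6.75 with siRNA 1 and 7.40 and 7.96 with siRNA 2, above every C13 library and with no order by siRNA (log2 fold change -1.19, SE 0.11, adjusted p = 1.4e-05). Depp1 was at 8.12 and 7.79 CPM in the C13 controls, 6.14 with siRNA 1 and 8.67 with siRNA 2. It stood at 11.4 CPM in the D1 control, 12.5 and 11.8 with siRNA 1 and 14.7 and 15.5 with siRNA 2, and the groups did not overlap (log2 fold change -0.75, SE 0.072, adjusted p = 2e-05). Gja5 was at 19.6 and 23.2 CPM in the C13 controls, 11.6 with siRNA 1 and 13.8 with siRNA 2. In D1 it was at 29.8 CPM in the D1 control, 23.6 and 20.7 with siRNA 1 and 29.5 and 33.9 with siRNA 2, lower in C13 within each siRNA group although C13 control 3 exceeded 1 D1 siRNA 1 library (log2 fold change -0.84, SE 0.15, adjusted p = 0.029).

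Many extracellular matrix genes were higher in C13. Collagens form the fibrils, sheets and beaded filaments around muscle cells. Of 26 listed collagen genes 24 were tested (Col2a1 and Col4a6 were below the filter), and 15 of the 24 were higher in C13 and 0 lower, against 4.31% of all genes called higher, and their median log2 fold change was 0.33 against 0.0002 over all genes. In 17 of the 24 the C13 libraries lay above the D1 libraries in every siRNA group, against 10.7% of all genes tested. The list does not hold every collagen gene: of 11 other tested ones 0 were called higher and 3 lower, which were Col13a1, Col23a1 and Col19a1 (-0.70, adjusted p = 0.012), a gene named here after its values were seen. Among matrix glycoproteins, which link collagens to cells, 17 of 38 were higher and 0 lower (median 0.14). Of the enzymes and inhibitors that crosslink or cleave matrix, 14 of 37 were higher and 2 lower (median 0.11). The collagen median was 0.33 within controls, 0.28 within siRNA 1 and 0.36 within siRNA 2. With no siRNA term 4 collagens were called higher (median 0.33), and with a replicate block 2 (median 0.40). In the 6 libraries whose names occur under both prefixes 8 were called higher (median 0.31). In the same order, the counts were 2, 1 and 9 for matrix glycoproteins and 0, 2 and 7 for the enzymes and inhibitors. Of all genes, 29, 10 and 185 were called higher in these fits.

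Col1a1 encodes the main chain of type I collagen (chromosome 11, 94936224 to 94953042 of mm10). It was at 239 and 265 CPM in the C13 controls, 281 with siRNA 1 and 298 with siRNA 2. The corresponding level was 140.4 CPM in the D1 control, 147 and 144 with siRNA 1 and 179 and 167 with siRNA 2. Every C13 library lay above every D1 library, whatever the siRNA (log2 fold change 0.86, SE 0.039, adjusted p = 2.9e-08). Col6a1, a chain of the beaded type VI collagen of muscle, was at 132 and 124 CPM in the C13 controls, 148 with siRNA 1 and 112 with siRNA 2. It was at 72.7 CPM in the D1 control, 88.4 and 90.4 with siRNA 1 and 76.7 and 76.8 with siRNA 2, again with no overlap (log2 fold change 0.70, SE 0.042, adjusted p = 1.4e-06). The partner chain Col6a3 was at 240.0 and 236 CPM in the C13 controls, 197 with siRNA 1 and 298 with siRNA 2. Its D1 libraries lay in a narrow band, at 148 CPM in the D1 control, 145 and 147 with siRNA 1 and 146 and 139 with siRNA 2. The prefix difference of Col6a3 (log2 fold change 0.73, SE 0.11, adjusted p = 0.018) was widest within siRNA 2 and differed between siRNA groups (adjusted p = 2.6e-06); without the D1 control its adjusted p was 0.063. Col27a1, a low-level fibrillar collagen, rose by 0.69 (adjusted p = 0.012), a call lost without the D1 control or without the C13 siRNA 1 library (highest adjusted p 0.058).

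Postn encodes periostin, a TGF-beta-induced matrix protein. It was at 189 and 202 CPM in the C13 controls, 104 with siRNA 1 and 192 with siRNA 2. It was at 121 CPM in the D1 control, 56.2 and 54.6 with siRNA 1 and 113 and 113 with siRNA 2. The siRNA 1 libraries were lowest under both prefixes, and within each group the C13 libraries lay above the D1 libraries (log2 fold change 0.78, SE 0.036, adjusted p = 2.4e-08). Vcan, the large proteoglycan versican, was at 193 and 205 CPM in the C13 controls, 187 with siRNA 1 and 211 with siRNA 2. It was at 153 CPM in the D1 control, 121 and 127 with siRNA 1 and 147 and 153 with siRNA 2, with no overlap (log2 fold change 0.49, SE 0.037, adjusted p = 4e-06). Timp3, a matrix-bound inhibitor of metalloproteinases, was at 181 and 201 CPM in the C13 controls, 183 with siRNA 1 and 234 with siRNA 2. Its D1 values were lower throughout, at 129.5 CPM in the D1 control, 141 and 143 with siRNA 1 and 156 and 159 with siRNA 2 (log2 fold change 0.50, SE 0.041, adjusted p = 1.9e-05). The laminin chain Lama4 rose by 0.65 (adjusted p = 0.0037) and the crosslinking enzyme Loxl2 by 0.44 (adjusted p = 0.016; 0.093 without the C13 siRNA 1 library). Fn1, the fibronectin gene and an abundant matrix gene, stood at 5260.4 to 7093 CPM in the C13 libraries and 4798 to 6981 in the D1 libraries and missed the threshold (0.033, adjusted p = 0.89).

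**Figure D2:**
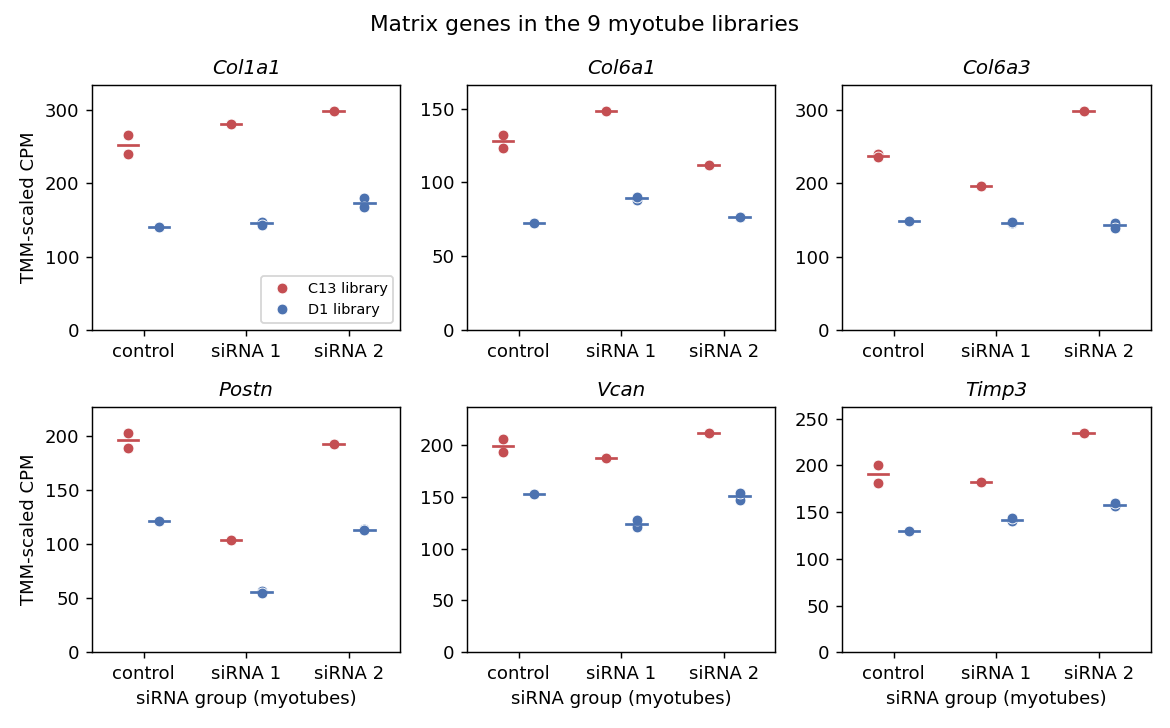
TMM-scaled CPM (vertical axis, from 0) of 6 matrix genes in each of the 9 myotube libraries by siRNA group; red points are C13 and blue points D1 libraries, and bars are means. In every panel the red points lie above the blue points of the same siRNA group; for Col1a1 the lowest C13 value is 239 CPM and the highest D1 value 179 CPM.

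Markers of fibroblasts, the cells that make most matrix in muscle tissue, were in part higher as well. Of 13 listed markers 10 were tested, and 4 were higher in C13 and 0 lower (median 0.18), against 4.31% of all genes called higher: Dpep1 (0.53, adjusted p = 0.011), Pi16 (0.51, adjusted p = 0.024), Scara5 (0.47, adjusted p = 0.0080) and Cd248 (0.26, adjusted p = 0.034), as log2 fold changes. Dpep1 lost its call without the C13 siRNA 1 or the C13 siRNA 2 library (highest adjusted p 0.076), Pi16 without the D1 control (0.19) and Scara5 without the C13 siRNA 1 library (0.070), and Cd248 kept it only without the C13 siRNA 1 library or without D1 siRNA 1 replicate 2. The summed level of the list was 589 to 724 CPM in C13 and 536 to 766 in D1, which overlap, and Thy1, Lum and Tcf21 were below the filter on low counts. Of the reserve cell list, genes of undifferentiated cells that persist in myotube cultures, 6 of 12 tested were higher and 2 lower, with the adhesion molecule Vcam1 at 0.42, adjusted p = 0.0016. Spry1, a member of the same list, was among those called lower. The summed level of that list was 768 to 893 CPM in C13 and 731 to 862 in D1, and Pax3, Calcr and Chrdl2 were below the filter. Of smooth muscle and endothelial markers, 2 of 8 were higher, among them the pericyte receptor Pdgfrb (0.26, adjusted p = 0.00011), and the summed level was 1811 to 2232 CPM in C13 and 1758 to 1833 in D1, with Pecam1, Cdh5, Kdr, Emcn and Rgs5 below the filter. Of immune markers 0 of 3 tested were called by edgeR, DESeq2 or limma, with 0 at an unadjusted p under 0.05, and 9 of the 12 listed, Ptprc among them, were below the filter. The part of these cell types in the matrix difference was not tested. In bulk RNA, fewer cells of a type and less RNA per cell cannot be told apart.

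Some secreted regulators of muscle growth were called. Igf1, a growth factor for muscle, was at 6.91 and 6.61 CPM in the C13 controls, 7.15 with siRNA 1 and 4.40 with siRNA 2. It was at 3.57 CPM in the D1 control, 2.85 and 2.92 with siRNA 1 and 2.87 and 2.64 with siRNA 2, and every C13 value exceeded every D1 value (log2 fold change 0.98, SE 0.10, adjusted p = 3.1e-05). Igf2 rose by 0.36 (adjusted p = 0.0057; 0.057 without the C13 siRNA 1 library). Of 33 genes of TGF-beta and BMP signalling, 6 were higher and 5 lower, and of 28 genes of IGF and insulin signalling 5 were higher and 4 lower, against 8.91% of all genes called in either direction. Fst, which encodes the activin and myostatin inhibitor follistatin, was at 202 and 204 CPM in the C13 controls, 252 with siRNA 1 and 335 with siRNA 2. It stood at 166 CPM in the D1 control, 221 and 209 with siRNA 1 and 266 and 276 with siRNA 2. The level was higher with both siRNAs than in controls and higher in C13 within each group (log2 fold change 0.28, SE 0.029, adjusted p = 3.5e-05). Its relative Fstl3 rose by 0.53 (SE 0.043, adjusted p = 5.8e-06). Id2, a BMP-responsive inhibitor of bHLH factors, fell by 0.40 (adjusted p = 0.00059).

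Genes of cholesterol synthesis were lower in C13. All 28 listed members were tested, and 13 were called lower and 0 higher, against 4.6% of all genes called lower, with a median log2 fold change of -0.48. In 24 of the 28 the C13 libraries lay below the D1 libraries in every siRNA group, against 11.5% of all genes tested. Of fatty acid synthesis genes, which SREBP also drives, 13 of 31 were lower and 0 higher (median -0.084), with 6 of 31 without the C13 siRNA 1 library. The size of the sterol difference depended on the siRNA group: the list median was -0.26 within controls, -0.46 within siRNA 1 and -0.82 within siRNA 2, and 22 of 28 members differed between siRNA groups, against 3.84% of all genes (607 of 15809). With the spread estimated by DESeq2 24 members were called lower, with limma on log2(TPM + 1) 21 and with RLE scaling 12. In the 6 libraries whose names occur under both prefixes 5 were called lower (median -0.50). With no siRNA term the count was 0 (median -0.40), and with a replicate block it was 0 (median -0.39). Leaving out 1 library gave 3 called members without the C13 siRNA 1 library, 23 without the D1 control and 22 without the C13 siRNA 2 library, with medians of -0.63 to -0.32 over all 9 such fits.

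Upstream sequence is shown for 4 cholesterol synthesis genes that were called lower. The 250 bases before the RefSeq start (build GRCm38.p6) are printed 5′ to 3′, with capitals for the sterol response element core TCACNCCAC and the CCAAT box ATTGG, searched on both strands; the 2 motifs do not overlap here.
Hmgcs1 (chr13:119690101-119690350, plus strand): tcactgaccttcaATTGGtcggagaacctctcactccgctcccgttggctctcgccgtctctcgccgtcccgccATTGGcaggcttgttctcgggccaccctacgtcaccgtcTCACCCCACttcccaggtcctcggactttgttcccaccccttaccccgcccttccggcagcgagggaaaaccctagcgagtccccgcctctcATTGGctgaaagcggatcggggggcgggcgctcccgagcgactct
Insig1 (chr5:28071162-28071411, plus strand): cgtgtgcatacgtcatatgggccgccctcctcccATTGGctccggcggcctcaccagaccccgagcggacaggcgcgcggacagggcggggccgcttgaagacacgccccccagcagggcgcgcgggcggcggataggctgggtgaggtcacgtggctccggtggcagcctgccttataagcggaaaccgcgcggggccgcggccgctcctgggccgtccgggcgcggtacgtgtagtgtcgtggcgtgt
Cyp51 (chr5:4104698-4104947, minus strand): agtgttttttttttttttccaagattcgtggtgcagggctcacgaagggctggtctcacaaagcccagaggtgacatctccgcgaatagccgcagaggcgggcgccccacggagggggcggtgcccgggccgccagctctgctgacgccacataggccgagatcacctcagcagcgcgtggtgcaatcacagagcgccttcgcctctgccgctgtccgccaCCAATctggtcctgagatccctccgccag
Nsdhl (chrX:72918271-72918520, plus strand): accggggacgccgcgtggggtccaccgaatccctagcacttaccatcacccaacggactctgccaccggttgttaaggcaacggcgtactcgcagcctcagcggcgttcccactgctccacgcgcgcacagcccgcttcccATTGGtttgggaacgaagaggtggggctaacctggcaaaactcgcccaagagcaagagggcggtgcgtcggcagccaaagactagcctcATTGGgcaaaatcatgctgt
Of 28 tested members 20 had a promoter entry. The CCAAT box, bound by NF-Y, which works beside SREBP at sterol genes, was in 19 of these 20 promoters, against 40.3% of the 10875 tested genes with an entry and 37.5% of all entries. It was also in 14 of 25 promoters of fatty acid synthesis genes and 28 of 38 of unfolded protein and integrated stress response genes. Of collagen promoters, whose genes were higher in C13 as a list, 10 of 19 held it. Whether it has a part in the prefix difference was not tested. The sterol response element core was in 1 of the 20, Hmgcs1, against 1.28% of tested genes and 1.22% of all entries. In the 4 promoters printed, Hmgcs1 held 3 CCAAT boxes, Nsdhl 2, and Insig1 and Cyp51 1 each. A match is a description of letters, and no binding was measured.

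Hmgcs1 encodes the synthase that starts the mevalonate pathway (chromosome 13, 119690379 to 119708260 of mm10). It was at 366 and 403 CPM in the C13 controls, 261 with siRNA 1 and 255 with siRNA 2. It was at 469 CPM in the D1 control, 391 and 391 with siRNA 1 and 483 and 502 with siRNA 2. Within each group the C13 libraries were lower, and in the siRNA 2 group by the most (log2 fold change -0.60, SE 0.12, adjusted p = 0.044). Insig1, the sterol sensor that SREBP itself induces, was at 204 and 226 CPM in the C13 controls, 155 with siRNA 1 and 135 with siRNA 2. It was at 283 CPM in the D1 control, 264 and 267 with siRNA 1 and 325 and 326 with siRNA 2, and no C13 library reached the lowest D1 value (log2 fold change -0.81, SE 0.16, adjusted p = 0.046). Cyp51, the lanosterol demethylase, was at 205 and 220.5 CPM in the C13 controls, 141 with siRNA 1 and 144 with siRNA 2. It was at 258 CPM in the D1 control, 213 and 208 with siRNA 1 and 284 and 285 with siRNA 2 (log2 fold change -0.61, SE 0.13, adjusted p = 0.04999), so that the C13 controls overlapped the D1 siRNA 1 libraries but lay below the D1 control. Nsdhl, a later sterol dehydrogenase, was at 104 and 106 CPM in the C13 controls, 74.0 with siRNA 1 and 76.9 with siRNA 2. In D1 it was at 136 CPM in the D1 control, 106 and 105 with siRNA 1 and 141 and 142 with siRNA 2, and it fell by 0.58 (SE 0.087, adjusted p = 0.012; 0.059 without the C13 siRNA 1 library). With 1 library left out, Insig1 and Cyp51 passed in 2 of 9 fits (without the D1 control and without the C13 siRNA 2 library) and Hmgcs1 in 3, with highest adjusted p values of 0.14, 0.16 and 0.15, all without the C13 siRNA 1 library.

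Fasn, the fatty acid synthase, was at 664 and 698 CPM in the C13 controls, 485 with siRNA 1 and 472 with siRNA 2. It was at 841 CPM in the D1 control, 685 and 701 with siRNA 1 and 858 and 825 with siRNA 2 (log2 fold change -0.55, SE 0.091, adjusted p = 0.017; 0.092 without the C13 siRNA 1 library). Acly, which makes the acetyl-CoA used by both pathways, was at 226 and 234 CPM in the C13 controls, 173 with siRNA 1 and 93.4 with siRNA 2. It was at 282 CPM in the D1 control, 221 and 216 with siRNA 1 and 153 and 156 with siRNA 2, lower with siRNA 2 in both prefixes and lower in C13 within each group (log2 fold change -0.44, SE 0.076, adjusted p = 0.016; 0.051 without the C13 siRNA 1 library). Both genes differed between siRNA groups (adjusted p = 0.00015 for Fasn and 0.00019 for Acly).

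**Figure D3:**
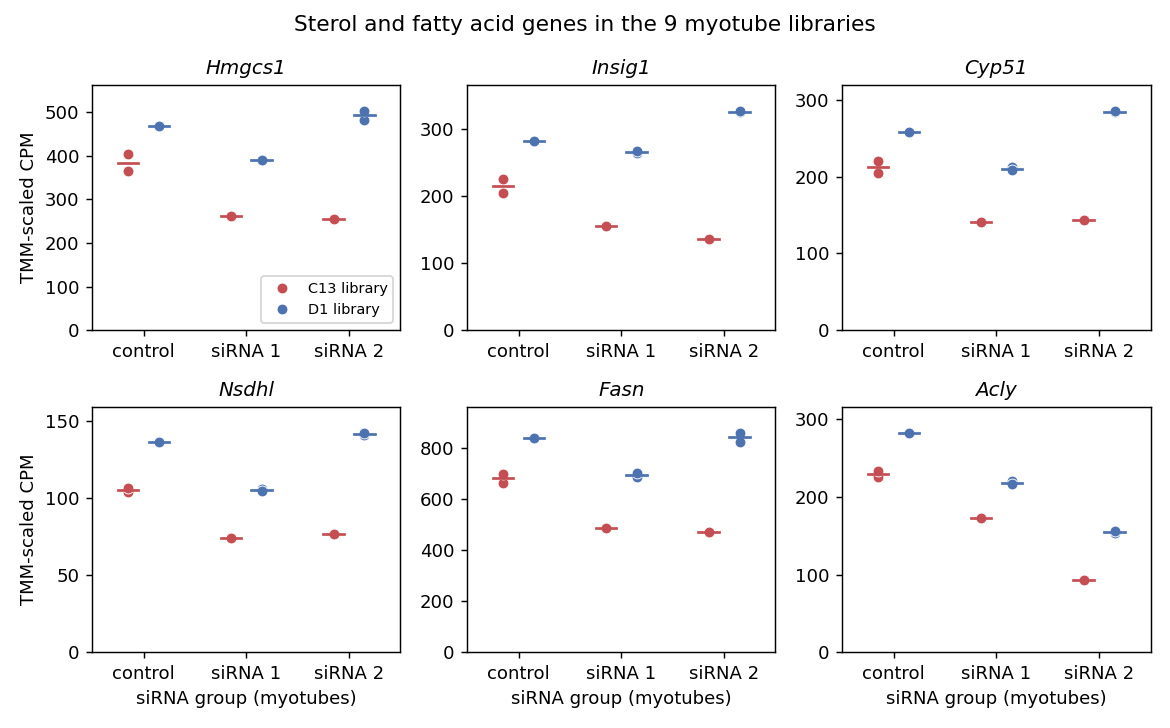
TMM-scaled CPM (vertical axis, from 0) of 4 sterol genes, Fasn and Acly in the 9 myotube libraries by siRNA group; red points are C13 and blue points D1 libraries, and bars are means. Within each siRNA group red lies below blue, and for Hmgcs1 with siRNA 2 the values are 255 CPM in C13 against 483 and 502 in D1.

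Read the other way, the same 22 of 28 genes had an effect of Setd2 siRNA that differed between the prefixes. Within C13, siRNA 2 lowered 24 of 28 members and raised 0, against 14% of all genes lower and 15.8% higher, with a median log2 fold change of -0.52. Within D1, siRNA 2 lowered 4 and raised 7, against 16.2% lower and 18.2% higher, with a median of 0.054. For Hmgcs1 the siRNA 2 effect was -0.60 within C13 (adjusted p = 2.1e-08) and 0.073 within D1 (adjusted p = 0.29). For Insig1 it was -0.67 within C13 (adjusted p = 3.4e-09) and 0.20 within D1 (adjusted p = 0.0022). The first siRNA lowered 23 of 28 members within C13 (8.54% of all genes were lower) and 20 within D1 (11.5%), with medians of -0.42 and -0.22. Within a prefix both siRNAs share the control libraries, which are 1 library in D1, and each siRNA is 1 library in C13, so these values rest on a spread pooled over 3 pairs of libraries (edgeR's quasi-likelihood test, 3 residual degrees of freedom).

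**Figure D4:**
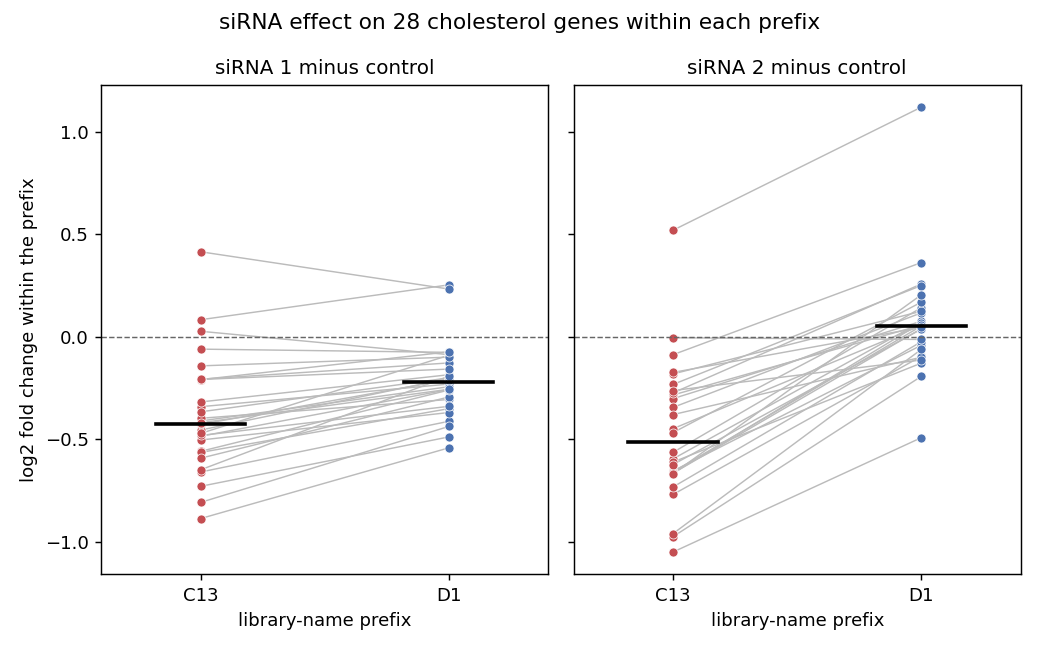
Log2 fold change of each siRNA against control within each prefix (vertical axis) for the 28 tested cholesterol genes; each point is a gene, grey lines join the same gene and black bars are medians. The siRNA 2 medians are -0.52 in C13 and 0.054 in D1, and the siRNA 1 medians -0.42 and -0.22.

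Of 38 tested members of the immediate early list, 10 were lower in C13 and 4 higher, against 4.6% of all genes called lower and 4.31% higher. The list median was -0.056. With no siRNA term 0 members were called lower, beside 12 of all genes. With a replicate block 0 members and 0 of all genes were called lower, and the list median was 0.020. Egr1, a zinc finger factor induced by growth factors and load, was at 101 and 107 CPM in the C13 controls, 95.0 with siRNA 1 and 134 with siRNA 2. It was at 128 CPM in the D1 control, 143 and 144 with siRNA 1 and 166 and 152 with siRNA 2 (log2 fold change -0.38, SE 0.062, adjusted p = 0.0084), lower in C13 within each group. Dusp4, a phosphatase that ERK induces and that acts on it, was at 41.6 and 42.5 CPM in the C13 controls, 29.1 with siRNA 1 and 31.9 with siRNA 2. It was at 52.9 CPM in the D1 control, 40.9 and 39.6 with siRNA 1 and 48.3 and 49.1 with siRNA 2 (log2 fold change -0.46, SE 0.042, adjusted p = 1.4e-05). For both genes the C13 values were below the D1 values of the same siRNA group, although C13 controls exceeded D1 siRNA 1 libraries for Dusp4. Fos fell by 0.32 (adjusted p = 0.018, lost without the C13 siRNA 1 library, the C13 siRNA 2 library or D1 siRNA 2 replicate 2) and Fosl1 by 0.38 (adjusted p = 0.0074), both AP-1 subunits at under 10 CPM. Errfi1 and Spry1 come from other lists, Spry1 from that of reserve cells. Errfi1, an inhibitor of EGF receptors, was at 69.4 and 78.6 CPM in the C13 controls, 61.4 with siRNA 1 and 72.6 with siRNA 2. The corresponding level was 95.8 CPM in the D1 control, 91.7 and 96.5 with siRNA 1 and 103 and 99.0 with siRNA 2, with every D1 value above every C13 value (log2 fold change -0.49, SE 0.049, adjusted p = 0.00019). Spry1, another inhibitor of receptor signalling, fell too (-0.39, adjusted p = 0.0064). Of targets of SRF and YAP, 4 of 36 were higher and 5 lower (25% called, beside 8.91% of all genes); Ankrd1, a stretch-responsive titin partner, fell by 0.23 (SE 0.031, adjusted p = 0.00029) and Ccn1, a secreted YAP target, by 0.33 (adjusted p = 0.024, called in 4 of 9 fits without 1 library, and at 0.15 without the C13 siRNA 1 library). Nr4a3, a nuclear receptor of the immediate early list, rose (0.56, adjusted p = 0.0029).

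The contractile lists had medians near 0 in myotubes. Of 24 thick filament genes 4 were higher and 1 lower (median 0.003), and of 22 thin filament genes 1 was higher and 1 lower (median 0.015), against 8.91% of all genes called. Of 28 Z-disc and costamere genes 6 were higher and 3 lower. Myh3 (-0.14, adjusted p = 0.14), the perinatal myosin gene Myh8 (0.10, adjusted p = 0.19), the fast myosin gene Myh4 (-0.0050, adjusted p = 0.98) and skeletal actin Acta1 (-0.020, adjusted p = 0.80) missed the threshold. Some muscle genes did rise. Ckmt2 was at 3.48 and 3.32 CPM in the C13 controls, 7.42 with siRNA 1 and 20.5 with siRNA 2. It was at 1.18 CPM in the D1 control, 3.89 and 5.52 with siRNA 1 and 7.62 and 7.85 with siRNA 2 (log2 fold change 1.16, SE 0.17, adjusted p = 0.0056), with C13 siRNA 2 far above the other libraries. The cytosolic creatine kinase Ckm rose by 0.18 (adjusted p = 0.0042), the fast myosin-binding protein gene Mybpc2 by 0.50 (adjusted p = 0.0055) and the stretch-responsive Z-disc gene Ankrd2 by 0.38 (adjusted p = 0.0011). Of 23 myogenic regulators 3 were higher and 4 lower: Myf6, the last myogenic factor to appear, rose by 0.55 (adjusted p = 0.011, lost without the C13 siRNA 2 library at 0.14 and without the D1 control at 0.051), Mef2c fell by 0.16 (adjusted p = 0.011; 0.087 without the C13 siRNA 1 library), and Myod1 (0.11, adjusted p = 0.11) and Myog (0.10, adjusted p = 0.34) missed the threshold.

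In myoblasts, where C14 libraries were compared with D2 libraries in the same way, 4092 of 15291 genes were called (26.8%), 1949 higher in C14 (12.7%) and 2143 lower (14%). Contractile genes were higher there in C14: 13 of 17 tested thick filament genes were higher in C14 and 1 lower (median 0.95), and 15 of 22 thin filament genes were higher and 1 lower (median 0.74). Myh3 in myoblasts was at 22.1 CPM in the C14 control, 19.5 and 22.6 with siRNA 1 and 28.8 with siRNA 2. It was at 9.75 and 6.44 CPM in the D2 controls, 7.55 with siRNA 1 and 12.3 and 16.0 with siRNA 2, below C14 within each group (1.29, adjusted p = 0.0039), and the difference between stages was -1.44 (adjusted p = 0.00033). Whether C13 goes with C14 and D1 with D2 is not given in the labels, beyond the shared letter. A D2 siRNA 2 column is headed SETD3 where its sample's description has SETD2. Tested as the difference between the stages, 2302 of 16663 genes were called (13.8%), 1003 with a more positive difference in myotubes (6.02%) and 1299 with a more negative one (7.8%). Collagens counted 8 of 25 more positive and 0 more negative, and cholesterol genes 1 and 16 of 28.

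Genes called in both stages did not always share a direction. Of 14572 genes tested in both, 606 were called in both, which is 46.2% of the 1313 called in myotubes and 15% of the 4038 called in myoblasts. Over all genes tested in each stage, 26.8% were called in myoblasts and 8.91% in myotubes. Of the 606, 400 had the same direction and 206 the opposite one. Timp3 and Fst were among the opposite ones. In myoblasts Timp3 was at 115 CPM in the C14 control, 148 and 144 with siRNA 1 and 148 with siRNA 2. It was at 153 and 152 CPM in the D2 controls, 182 with siRNA 1 and 186 and 189 with siRNA 2, higher in D2 within each group (-0.36, adjusted p = 1.3e-13), where in myotubes it was higher in C13. Fst, at under 3 CPM in every myoblast library, was also lower in C14 (-0.55, adjusted p = 0.00043). Col1a1 (0.48, adjusted p = 0.0046), Cdh11 (0.51, adjusted p = 1.9e-05) and Enpp1 (0.46, adjusted p = 2.4e-06) were higher in C14 as in C13. Immediate early genes counted 24 lower and 3 higher of 38 in myoblasts, against 14% of all myoblast genes called lower and 12.7% higher.

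**Figure D5:**
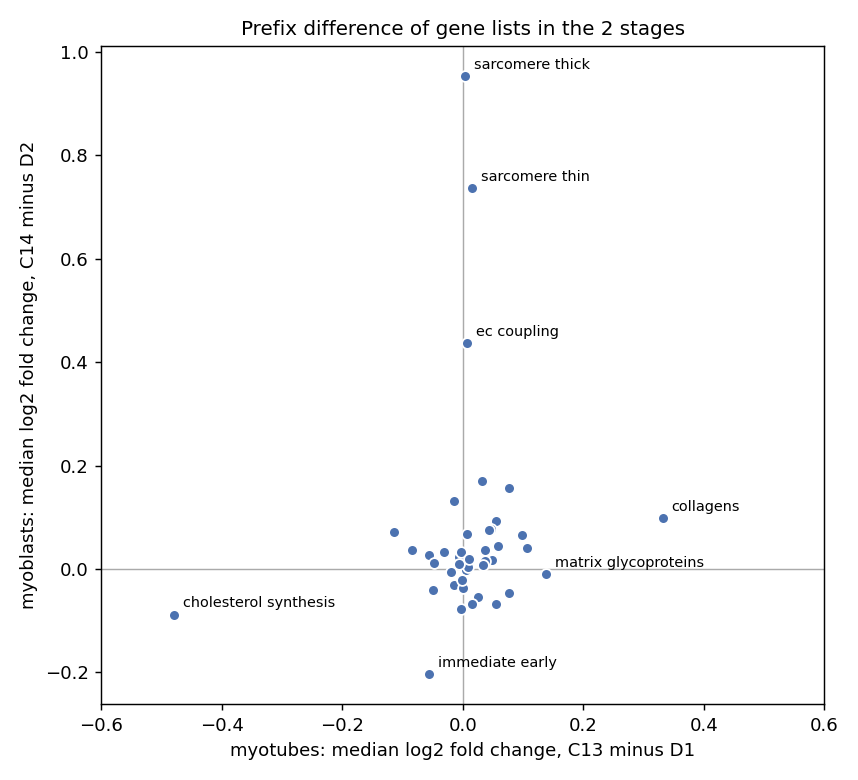
Median log2 fold change of each gene list between prefixes in myotubes (horizontal axis, C13 minus D1) and in myoblasts (vertical axis, C14 minus D2); points are lists with at least 8 tested members in each stage. Sarcomere lists have medians of 0.95 and 0.74 there and 0.003 and 0.015 in myotubes, and collagens (0.33) and cholesterol synthesis (-0.48) lie farthest out along the myotube axis.

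The genes of energy metabolism that were called were higher in C13, beside 4.31% of all genes called higher and 8.91% called in either direction. For the respiratory chain the share called was below both. For the TCA cycle and fatty acid oxidation, and for glycolysis, it was above both. Of 78 respiratory chain genes 3 were called higher and 0 lower (3.85% called, median 0.043), of 50 genes of the TCA cycle and fatty acid oxidation 7 higher and 0 lower (14%, median 0.037), and of 33 glycolysis genes 4 higher and 0 lower (12.1%, median 0.048). The genes Cpt1a, which admits fatty acids to mitochondria (0.28, adjusted p = 0.0053), and Pdk4, which blocks pyruvate oxidation (0.24, adjusted p = 0.0062; 0.051 without the C13 siRNA 2 library), rose. Txnip, which restrains glucose uptake, was at 107 and 97.6 CPM in the C13 controls, 102 with siRNA 1 and 132 with siRNA 2. It was at 59.6 CPM in the D1 control, 66.4 and 66.9 with siRNA 1 and 77.0 and 76.2 with siRNA 2 (log2 fold change 0.73, SE 0.036, adjusted p = 2.4e-08), with no overlap. Of 30 hypoxia genes 4 were higher and 3 lower (23.3% called, beside 8.91% of all genes). Car9, a carbonic anhydrase and HIF target, was at 3.80 and 2.53 CPM in the C13 controls, 4.34 with siRNA 1 and 7.06 with siRNA 2. It was at 1.45 CPM in the D1 control, 1.87 and 1.55 with siRNA 1 and 1.38 and 1.57 with siRNA 2 (log2 fold change 1.61, SE 0.21, adjusted p = 0.0019), with no overlap but few counts. The lysyl hydroxylase gene Plod2 (0.27, adjusted p = 3.1e-05) and the glycolytic gene Pgk1 (0.17, adjusted p = 0.0061) rose, while the HIF targets Vegfa (0.039, adjusted p = 0.64) and Ldha (0.081, adjusted p = 0.097) missed the threshold.

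More stress genes were called lower in C13 than higher. Of 43 unfolded protein and integrated stress response genes, 4 were lower and 0 higher. The share called was 9.3%, beside 8.91% of all genes called in either direction and 4.6% called lower. The chaperone gene Hspa5 (-0.0060, adjusted p = 0.95) and the stress factor gene Ddit3 (-0.086, adjusted p = 0.41) missed the threshold. The list's prefix difference varied with the siRNA: its median was -0.094 within controls, -0.030 within siRNA 1 and 0.052 within siRNA 2, and 14 of 43 genes differed between siRNA groups, against 3.84% of all genes. Without the C13 siRNA 2 library 14 of 43 were lower. With all 9 libraries, the 4 called were amino acid genes: Psat1 and Phgdh of serine synthesis, Mthfd2 of the mitochondrial folate cycle and Slc7a11, the cystine importer. Psat1 was at 325 and 327 CPM in the C13 controls, 269.6 with siRNA 1 and 299 with siRNA 2. It was at 409.8 CPM in the D1 control, 360.1 and 340.1 with siRNA 1 and 365 and 362 with siRNA 2 (log2 fold change -0.33, SE 0.029, adjusted p = 8.9e-06), with every C13 value below every D1 value. Phgdh fell by 0.31 (SE 0.035, adjusted p = 8.6e-05), Mthfd2 by 0.26 (adjusted p = 0.035, called in 2 of 9 fits without 1 library, those without the C13 siRNA 2 library or D1 siRNA 2 replicate 2) and Slc7a11 by 0.16 (adjusted p = 0.024, lost without the C13 siRNA 2 library, the D1 control or C13 control 3). Of 37 oxidative and metal response genes 8 were lower and 1 higher (24.3% called, beside 8.91% of all genes). Mt1 was at 34.3 and 33.7 CPM in the C13 controls, 68.9 with siRNA 1 and 69.7 with siRNA 2. It was at 68.6 CPM in the D1 control, 89.2 and 81.3 with siRNA 1 and 100.4 and 106 with siRNA 2 (log2 fold change -0.62, SE 0.13, adjusted p = 0.046), lower in C13 within each group, with the widest gap in controls. It was called in 2 of 9 fits without 1 library, those without the C13 siRNA 1 library or the D1 control. Nqo1, an NRF2 target, fell by 0.43 (adjusted p = 0.0020).

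Several programs showed few or no calls, beside 8.91% of all genes called in either direction. The H3K36 pathway list counted 0 of 24 called by edgeR's quasi-likelihood test, 0 by DESeq2 and 0 by limma, with 4 at an unadjusted p under 0.05. Of 35 proteasome genes 0 were called by each of the 3 tools, with 5 at an unadjusted p under 0.05, and of 24 nuclear RNAs 0 by edgeR, 1 by DESeq2 and 0 by limma, with 4 at an unadjusted p under 0.05. The mitosis list counted 1 of 38 (Ect2, -0.18, adjusted p = 0.024, called in 4 of 9 fits without 1 library, and at 0.15 without the C13 siRNA 1 library) and the S phase list 1 of 42. The proliferation marker Mki67 stood at 103 to 155 CPM in the C13 libraries and 105 to 151 in the D1 libraries (0.0059, adjusted p = 0.95). Of 33 interferon genes 1 was lower, and Ifit1 was at -0.19, adjusted p = 0.57 at about 1 CPM. Leaving out 1 library moved the number of called genes by over 1.5 times in 34 of the 47 lists, most of them lists with few calls, and 34 lists kept at least 1 call in all 9 such fits. All 58 ribosomal protein genes had a positive log2 fold change (median 0.058), against 50.1% of all genes tested, and 4 were called (6.9%).

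With the prefix in the model, Setd2 siRNA 1 called 4430 myotube genes (28%) and siRNA 2 called 6001 (38%). Without the prefix term the counts were 3354 and 5113. Both siRNAs were compared with the same 3 controls, of which 2 are C13, while each siRNA group holds 2 D1 libraries.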

How the data were processed

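PolyA RNA-seq of 18 C2C12 libraries was used as deposited. The authors' tables give, per the file headers, estimated counts (NumReads) and TPM for each transcript. No source used here names the quantifier. The genome mm10 and DESeq2 are named, with no role, per the submitters' processing notes. Transcripts were matched by identifier to genes, and the deposited estimated counts were summed per gene and rounded. Myotube genes passing a count filter (filterByExpr, minimum 10) were fitted with edgeR 4.0.16 in R 4.3.3 (TMM scaling, quasi-likelihood test, siRNA group and prefix as terms, 5 residual degrees of freedom), with Benjamini-Hochberg adjustment over all genes tested and a threshold of 0.05. Levels are CPM, counts scaled to a common library total after TMM. The fits were tested on simulated data.

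Alternatives used RLE scaling, no count filter, DESeq2 1.42.0, limma 3.58.1 on log2 of the deposited TPM plus 1 (mean TPM of at least 0.5), other terms or fewer libraries. Genes named were the 12 largest rises and 12 largest falls among called protein-coding genes of at least 5 CPM whose prefixes did not overlap in any siRNA group, up to 4 genes from each list, and genes listed by function. The comparison and the 47 lists were chosen with earlier results of these data known, so list counts are descriptions. Nothing in the sources says that libraries of a group came from separate cultures.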

Additional observations from a re-analysis of the deposited data

Results flagged for a closer look

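Genes whose prefix difference was not the same in myotubes (C13 minus D1) and myoblasts (C14 minus D2) are given as the log2 difference of these differences, positive where the myotube value was the more positive; each passed edgeR's quasi-likelihood test of that difference with Benjamini-Hochberg adjustment over 16663 genes. Among matrix and surface genes it was positive for Col1a1 (0.37), Col6a3 (0.80), Col27a1 (0.79), Postn (0.44), Vcan (0.56), Timp3 (0.85), Svep1 (0.58), Enpp1 (0.51), Cdh11 (0.29), Piezo2 (0.90) and Vcam1 (0.32). Among secreted growth regulators, the follistatin genes Fst (0.82) and Fstl3 (0.47) were positive and Igf2 (-0.86) was negative. Genes of sterol and fatty acid synthesis were negative: Hmgcs1 (-0.63), Insig1 (-0.75), Cyp51 (-0.48), Nsdhl (-0.55), Fasn (-0.36) and Acly (-0.34). So were the signalling inhibitors Spry1 (-0.44) and Errfi1 (-0.18), while the nuclear receptor gene Nr4a3 (0.71) was positive. Muscle genes were negative for Myog (-1.17), Mef2c (-0.32), Myh3 (-1.44), Acta1 (-1.05) and Ckm (-1.39) and positive for Myod1 (0.18). In metabolism the difference was positive for Txnip (0.66), Car9 (1.64), Plod2 (0.15), Pgk1 (0.14), Cpt1a (0.19), Pdk4 (0.50) and Angptl4 (0.89). It was negative for the amino acid genes Psat1 (-0.42), Phgdh (-0.33), Mthfd2 (-0.41), Slc7a11 (-0.23) and Gcat (-0.42). The remaining genes were Gadd45a (-0.65), Ect2 (-0.20), Nr1d1 (0.23), Mal (-0.66) and Depp1 (-1.25). The number of libraries behind each value is 9 in each stage.

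Genes whose prefix difference in myotubes was not the same in the 3 siRNA groups are given with the adjusted p of that test (edgeR's quasi-likelihood test, 3 residual degrees of freedom, Benjamini-Hochberg over 15809 genes). Sterol and fatty acid genes were Hmgcs1 (2.5e-05), Insig1 (9.7e-07), Cyp51 (2.3e-06), Nsdhl (3.6e-05), Fasn (0.00015) and Acly (0.00019). Matrix and surface genes were Col6a1 (0.041), Col6a3 (2.6e-06), Col13a1 (0.015), Col23a1 (0.048), Loxl2 (0.00079), Fn1 (0.00033), Cd248 (0.017) and Piezo2 (0.0043). The other genes were Egr1 (0.012), Spry1 (0.01), Setd2 (7.8e-06), Myog (0.0056), Angptl4 (0.00022), Mthfd2 (0.0038), Mt1 (3.6e-05) and Otud7a (0.04). Since each siRNA group holds 1 library of 1 of the prefixes, each of these values turns on single libraries, and the cause was not tested.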

How the results depend on the processing

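Counts are genes called in the prefix comparison unless said otherwise. In myotubes the 1409 genes became 528 with limma on log2(TPM + 1), 41 with no siRNA term, 335 in the 6 libraries whose names occur under both prefixes, 522 within controls alone and 2201 (813 higher and 1388 lower) in a fit of all 18 libraries. Leaving out 1 library gave 859 to 1236. RLE scaling (1399), DESeq2 (1220), no count filter (2101) and leaving out ribosomal RNA-like and mitochondrial copies (1409) stayed within 1.5 times. In myoblasts the 4092 became 1901 with limma and 222 with no siRNA term, and leaving out 1 library gave 2903 to 3946. The stage comparison gave 1240 with limma against 2302. A replicate block left 10 calls in myotubes and 668 in myoblasts. Every replicate 1 myotube library is C13 and every replicate 2 library is D1. Only in replicate 3 do the prefixes differ within a number. There the control is C13 and both siRNA libraries are D1, so the prefix estimate also leans on the siRNA effects in the other replicates. Correlations of deviations between same-numbered myotube libraries ran from -0.12 to 0.15, and not every library correlated best with its own number. The replicate 3 pairs that cross the prefixes were lowest (-0.078 and -0.12). Prefix and replicate number are thus largely the same split, and these correlations cannot tell them apart. Of 87 genes followed, 72 were called and 29 of these lost the call in at least 1 of 9 fits without 1 library, with 0 reversed there. The value of Fn1 was -0.26 within siRNA 1 (adjusted p = 0.0078) and that of Scara5 was -0.077 with no siRNA term; the cause was not tested. The siRNA counts and the test across siRNA groups stayed within 1.5 times under RLE scaling. With 43.5 megareads in the shallowest myotube library, the 9 libraries rather than depth set the precision for all but low genes.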

Other observations

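Other lists are given by their called genes, beside 8.91% of all genes called in either direction. Of 21 clock genes 3 were higher in C13 and 0 lower, with the output gene Dbp at 0.26 (adjusted p = 0.017; lost without the D1 control or the C13 siRNA 2 library) and the repressor gene Nr1d1 at 0.22 (adjusted p = 0.0015). Of 27 p53 targets 1 was higher and 6 lower, among them the growth arrest gene Gadd45a at -0.30 (adjusted p = 0.00011). Of 18 imprinted genes 4 were higher and 1 lower. Of 18 glucocorticoid targets 5 were higher and 4 lower, and of 32 genes of Wnt and Notch signalling 5 were higher and 2 lower. Of 20 histone genes 3 were lower. Of 28 heat shock genes 1 was higher and 3 lower, and of 37 autophagy and lysosome genes 2 were higher and 6 lower. Of 50 mitochondrial ribosomal protein genes 1 was lower, and of 42 splicing genes 1 was higher. Of 20 genes of NF-kB and cytokine signalling 1 was higher and 2 lower.

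Across all 15809 genes, each of which had a transcript length and GC content, the prefix difference varied little with either. The median log2 fold change was 0.021 in the fifth of genes with the shortest transcripts and -0.0057 in the fifth with the longest, and it was -0.013 at the lowest GC content and 0.021 at the highest.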
